A study of Mus musculus with 6 samples.

Results

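Fgf21 and Gdf15 encode a pair of stress-responsive hormones made by the liver, and their mRNAs are described here across the livers of mice on a high-fat diet with or without an herbal extract. The rows of the deposited expression table whose identifiers map to these symbols were taken, which gave 2 of 23474 genes. The pair was chosen because earlier work on these data had shown a large difference between the diets. Their levels are therefore given as a description, and no test of that difference is reported for either gene. Liver mRNA was sequenced from 3 libraries of mice on the diet with the extract (BT) and 3 libraries of mice on the diet alone (HFD). BT mice were male C57BL/6J animals fed the high-fat diet with 1.5% (w/w) Bangpungtongseong-san extract. Bangpungtongseong-san is a herbal formula of traditional Korean medicine. HFD mice were male C57BL/6J animals fed the high-fat diet only. Both groups started the diets at 5 weeks of age, stayed on them for 12 weeks and were 17 weeks old, and the study held 20 mice in 2 groups of 10. All mice were on the high-fat diet, so no lean liver is available for comparison here. Nothing in the labels ties a library to a single mouse or to pooled mice, and p-values therefore reflect only how much these libraries vary, which may be technical.

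FGF21 is a hormone of the fibroblast growth factor family that the liver releases during fasting, sugar intake, protein restriction and cellular stress. It acts on fat tissue and the brain through FGF receptors joined to the co-receptor beta-klotho. GDF15 is a distant member of the TGF-beta family that many tissues release under mitochondrial, endoplasmic reticulum or toxic stress, and it lowers food intake through the receptor GFRAL with RET in the hindbrain. Transcription of both genes is known to be raised by the integrated stress response, in which kinases phosphorylate eIF2alpha and the factors ATF4 and CHOP are then made. Fgf21 is also a target of PPARalpha and of the carbohydrate-responsive factor ChREBP, and Gdf15 of p53.

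Fgf21 lies on the minus strand of chromosome 7 (45613886 to 45615490, GRCm38, GENCODE M21) and has 1 annotated transcript of 3 exons and 951 bases. Gdf15 lies on the minus strand of chromosome 8 (70629393 to 70632456), with 2 annotated transcripts, the longest having 2 exons and 1545 bases. Neither shares exon bases with another annotated gene (0% each). The 250 bases before each annotated start are shown because ATF4 acts on its targets through short elements of this kind of region. The sequences are from RefSeq (GRCm38.p6) and read 5′ to 3′ on the gene's strand. Capitals mark, in order, TTGCATCA, CACGTG and TATAAA for Fgf21 (chr7:45615491-45615740) and TGCATCA for Gdf15 (chr8:70632457-70632706).
Fgf21: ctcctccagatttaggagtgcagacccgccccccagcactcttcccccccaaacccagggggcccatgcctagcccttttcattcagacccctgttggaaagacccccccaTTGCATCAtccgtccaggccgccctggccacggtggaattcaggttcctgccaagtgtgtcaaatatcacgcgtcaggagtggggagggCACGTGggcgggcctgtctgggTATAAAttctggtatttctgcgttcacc
Gdf15: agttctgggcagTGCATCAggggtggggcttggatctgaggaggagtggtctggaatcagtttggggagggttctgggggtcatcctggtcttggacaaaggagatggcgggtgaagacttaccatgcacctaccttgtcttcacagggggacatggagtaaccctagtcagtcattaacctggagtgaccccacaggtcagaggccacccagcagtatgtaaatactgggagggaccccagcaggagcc
Motifs were searched on both strands from 250 bases before to 50 after each start. The core of the C/EBP-ATF response element, TGATGNAA, occurred in the Fgf21 window on the opposite strand, 139 to 132 bases before the start. It occurred in 3.97% of the 32851 promoter windows of the RefSeq table. The E-box CACGTG stood 50 to 45 bases before the Fgf21 start (7.15% of windows) and TATAAA 28 to 23 bases before it (13.6% of windows). TGATGNAA was not found in the Gdf15 window. Its first 7 letters, TGATGNA, chosen after the sequences were read, occurred there 238 to 232 bases before the start and in 12.2% of all windows, and they overlap TGATGNAA wherever that core occurs. A second RefSeq start of Gdf15 had CACGTG 83 to 78 bases before it. These matches describe letters and do not show a bound site. For comparison, 24-base windows around TGATGNAA (in capitals, on the strand that carries it) are given for Fgf21 and for a selection of other known ATF4 targets. Aars, Vldlr, Pck2, Herpud1 and Gars also have the core and are not shown. The core of Trib3 lies after the start, and the others shown lie before it.
Fgf21 (chr7:45615614-45615637, plus strand): tggacggaTGATGCAAtggggggg
Nupr1 (chr7:126625565-126625588, plus strand): gccctgtcTGATGCAAtctggccc
Trib3 (chr2:152344031-152344054, plus strand): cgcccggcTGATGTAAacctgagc
Atf3 (chr1:191183428-191183451, plus strand): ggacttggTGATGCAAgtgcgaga
Chac1 (chr2:119351041-119351064, minus strand): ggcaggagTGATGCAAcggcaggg
Inhbe (chr10:127352014-127352037, plus strand): gacatgcaTGATGCAAgaaagagg
Among ATF4 and CHOP targets tested, the core was found in 2 of the 7 that fell with BT, 1 of the 2 that rose and 7 of the 15 with a RefSeq window that passed in neither direction.

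Expression is in FPKM, fragments scaled to transcript length and to the size of the library, as the authors deposited it. Low values in the table, within a fixed window that bounds the result, put depth roughly at 13.8 to 15.8 M fragments per library. Of 10476 genes averaging 1 FPKM or more, 1398 differed between the diets in limma's test at an adjusted p under 0.05 (13.3%), 630 higher with BT (6.01%) and 768 lower (7.33%). With median-of-ratios scaling these were 448 higher and 884 lower. Omitting BT replicate 1, 2 or 3 left 173, 324 or 589 such genes, and omitting HFD replicate 2 left 621. Hepatocyte markers were abundant, but the albumin gene Alb, at 22791 to 27895 FPKM in 5 libraries, has a value of 0 in the third HFD library. The mitochondrial gene mt-Co1, at 44334 to 53659 FPKM in those 5 libraries, is also listed at 0 there. A listed 0 can therefore be a failed estimate. Neither hormone was at 0 in any library, and both passed the filter of 1 FPKM.

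Fgf21 stood at 2.95, 4.89 and 6.45 FPKM in BT livers, against 15.2, 22.0 and 21.9 FPKM in HFD livers (replicates 1 to 3). The groups did not overlap, and the lowest HFD library held 2.36 times the level of the highest BT library. Of all genes tested, 16.1% had their BT libraries below all HFD libraries. The mean was 4.77 ± 1.75 FPKM with BT and 19.7 ± 3.87 FPKM with HFD (SD, n = 3 each), 4.14-fold lower with BT, or -1.87 on the log2(FPKM + 1) scale. Among the genes tested, the Fgf21 mean lay above that of 33.3% of genes in BT livers and of 72.2% in HFD livers. The values correspond to an estimated 41 to 86 fragments per BT library and 229 to 325 per HFD library. On that rough estimate, counting alone gives a relative error of 10.8 to 15.7% in BT libraries and 5.5 to 6.6% in HFD libraries. The coefficient of variation over the 3 libraries was larger than that, at 36.8% with BT and 19.6% with HFD.

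Gdf15 stood at 3.85, 7.49 and 9.87 FPKM in BT livers, against 37.9, 26.0 and 25.8 FPKM in HFD livers. Here too the groups did not overlap (as in 16.1% of all genes tested), and the lowest HFD library held 2.62 times the level of the highest BT library. The mean was 7.07 ± 3.03 FPKM with BT and 29.9 ± 6.95 FPKM with HFD (SD, n = 3 each), 4.23-fold lower with BT, or -1.99 on the log2(FPKM + 1) scale. Its mean lay above that of 44.5% of the genes tested in BT livers and of 79.7% in HFD livers. An estimated 77 to 214 fragments per BT library and 493 to 928 per HFD library stand behind these values, depending on which of the 2 transcripts is assumed. The coefficient of variation was 42.9% with BT and 23.2% with HFD, against a roughly estimated counting error of at most 11.4% and 4.5%. Among all genes tested, Gdf15 had the 7th and Fgf21 the 9th largest fall on the log2 scale.

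**Figure D1:**
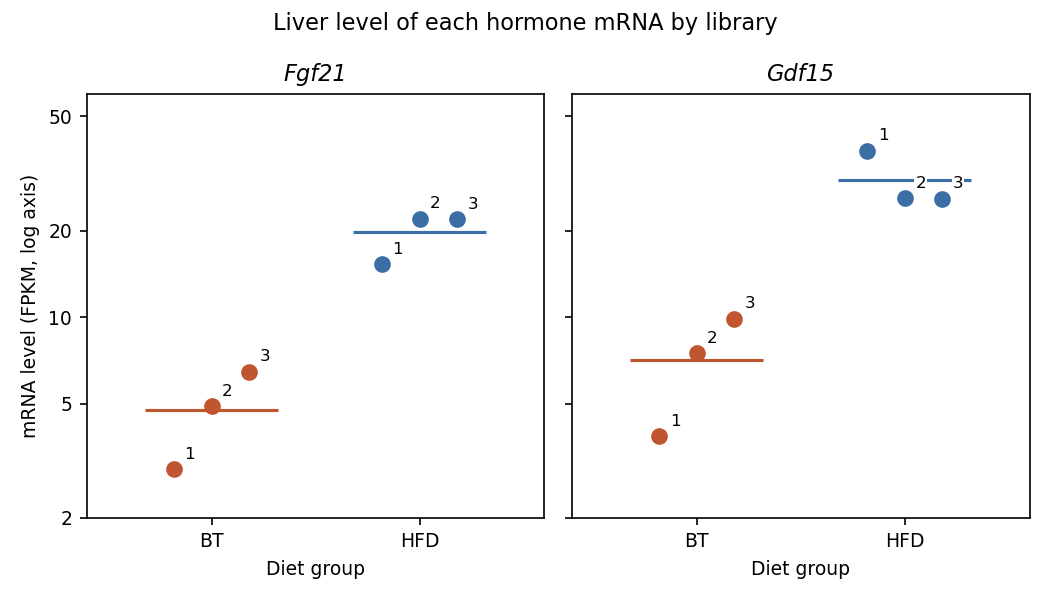
Level of Fgf21 (left) and Gdf15 (right) in each library, in FPKM on a log axis, with BT libraries left of HFD libraries; points are libraries with their replicate numbers and bars are group means. BT libraries lie at 2.95 to 6.45 FPKM for Fgf21 and 3.85 to 9.87 FPKM for Gdf15, below all HFD libraries of the same gene.

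Fgf21 and Gdf15 ordered the BT libraries alike and the HFD libraries differently. In both genes BT replicate 1 was lowest and BT replicate 3 highest, 2.18 times apart for Fgf21 and 2.56 times for Gdf15. HFD replicate 1 was the highest library for Gdf15 and the lowest HFD library for Fgf21. The ratio of Gdf15 to Fgf21, both in FPKM, was 1.30, 1.53 and 1.53 in BT livers and 2.49, 1.18 and 1.18 in HFD livers. These ranges overlap, and HFD replicate 1 had the highest ratio.

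Transcript length and base composition can affect FPKM values, and both hormone transcripts are shorter and richer in GC than most. The longest Fgf21 transcript has 951 bases and 54.5% GC and that of Gdf15 1545 bases and 61.3% GC, against medians of 3245 bases and 49.5% GC over 10403 genes tested. With each library's trend on length and GC content removed, the difference was -1.52 for Fgf21 and -1.63 for Gdf15. Rescaling to TPM gave -1.79 and -1.91, median-of-ratios scaling -1.94 and -2.06, and a pseudocount of 0.1 FPKM -2.07 and -2.14. The total used for TPM lacks Alb and mt-Co1 in HFD replicate 3. Leaving out 1 library at a time gave -2.08 to -1.63 for Fgf21 and -2.25 to -1.66 for Gdf15, with the smallest difference of both genes without BT replicate 1. Another 5 alternatives (filters, variance trend and replicate block) cannot alter a difference of group means.

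**Figure D2:**
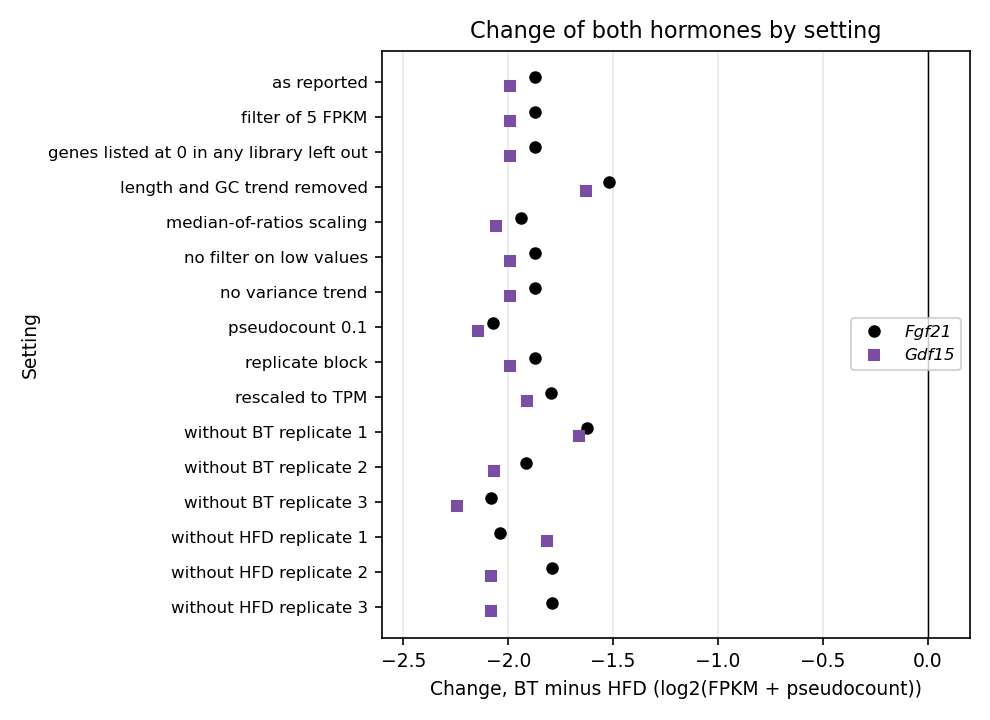
Difference between BT and HFD livers (BT minus HFD, log2 of FPKM plus the pseudocount) for Fgf21 (circles) and Gdf15 (squares) as reported and under each alternative. All points lie left of 0, between -2.25 and -1.52, with the smallest differences after removal of the length and GC trend and without BT replicate 1.

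Targets of ATF4 and CHOP, the factors of the integrated stress response that act on both hormones, were lower with BT in part. Of 28 targets tested 7 fell (25.0%, against 7.33% of all genes tested) and 2 rose (7.14%, against 6.01%), and the median change was -0.06, against 0.07 over all genes tested. The BT libraries lay below all HFD libraries in 10 of the 28 (35.7%), against 16.1% of all genes tested. Atf5, a transcription factor of the ATF4 family that acts on mitochondrial stress genes, stood at 66.1, 63.0 and 77.2 FPKM in BT livers and at 149, 166 and 161 FPKM in HFD livers (-1.20 ± 0.11 log2, SE, adjusted p = 0.00187). Cebpb, which encodes C/EBP-beta, a partner of ATF4 on DNA, stood at 11.3, 11.6 and 11.1 FPKM in BT livers and at 24.4, 25.5 and 36.6 FPKM in HFD livers (-1.25 ± 0.15, adjusted p = 0.00561). Neither gene's groups overlapped. Ddit3, which encodes CHOP itself, fell to 6.76 ± 1.53 FPKM with BT, against 12.0 ± 1.05 FPKM with HFD (adjusted p = 0.0206). The other 4 were Trib3, a pseudokinase that restrains ATF4 (-0.69), Nupr1, a stress-induced chromatin protein (-1.09), Ppp1r15a, the phosphatase subunit GADD34 that ends eIF2alpha phosphorylation (-0.69), and Ddit4, an inhibitor of mTORC1 (-0.81), with adjusted p-values of 0.0322 to 0.0455. The genes that rose were Aars, an alanyl-tRNA synthetase (0.40), and Atf6b, a membrane-bound sensor of endoplasmic reticulum stress related to ATF6 (0.51).

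Atf5 and Cebpb kept their calls whichever of the 6 libraries was omitted. The count of targets that fell was 2 without BT replicate 1, without BT replicate 2 or without HFD replicate 2, and 3 without HFD replicate 3. With the length and GC trend removed it was 3, namely Atf5 (-0.89, adjusted p = 0.0119), Ppp1r15a (-0.71, adjusted p = 0.0398) and Vldlr (-0.79, adjusted p = 0.026), while Cebpb gave -0.58 (adjusted p = 0.113). Exons of other genes cover 20.7% of the exon bases of Cebpb.

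**Figure D3:**
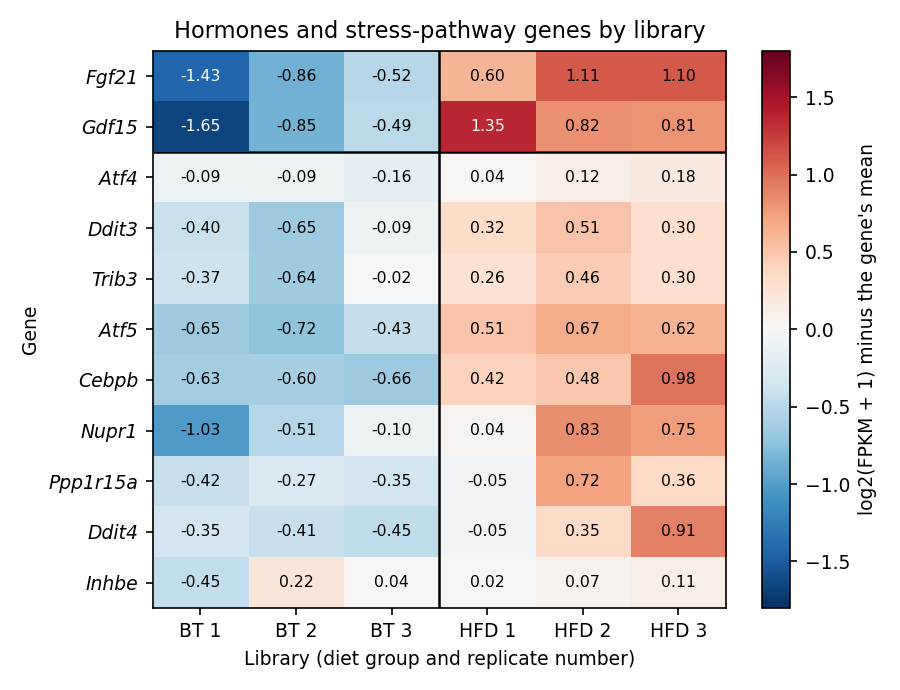
Hormones (top 2 rows) and genes of the stress pathway in each library, as log2(FPKM + 1) minus the gene's own mean over the 6 libraries; BT libraries are left of HFD libraries. Fgf21 ranges from -1.43 in BT replicate 1 to 1.11 in HFD replicate 2 and Gdf15 from -1.65 in BT replicate 1 to 1.35 in HFD replicate 1. Atf4 ranges from -0.16 to 0.18 and Ddit3 from -0.65 to 0.51. The hormones were chosen for a large difference, so their wider range is largely by construction.

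Other targets of the same pathway did not pass. Inhbe, which encodes a further ATF4-responsive liver hormone of the TGF-beta family, stood at 51.5, 82.6 and 72.6 FPKM in BT livers and at 71.6, 74.3 and 76.2 FPKM in HFD livers (adjusted p = 0.609). Its groups overlapped. Chac1, an enzyme that degrades glutathione and a sensitive readout of CHOP, stood at 1.64, 1.02 and 1.42 FPKM in BT livers and at 0.80, 1.02 and 2.24 FPKM in HFD livers (adjusted p = 0.91). A further 13 listed genes lay below the filter, and 12 of them stayed under 1 FPKM in all 6 libraries, among them Asns, Psat1, Phgdh and Mthfd2 of asparagine, serine and folate metabolism.

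**Figure D4:**
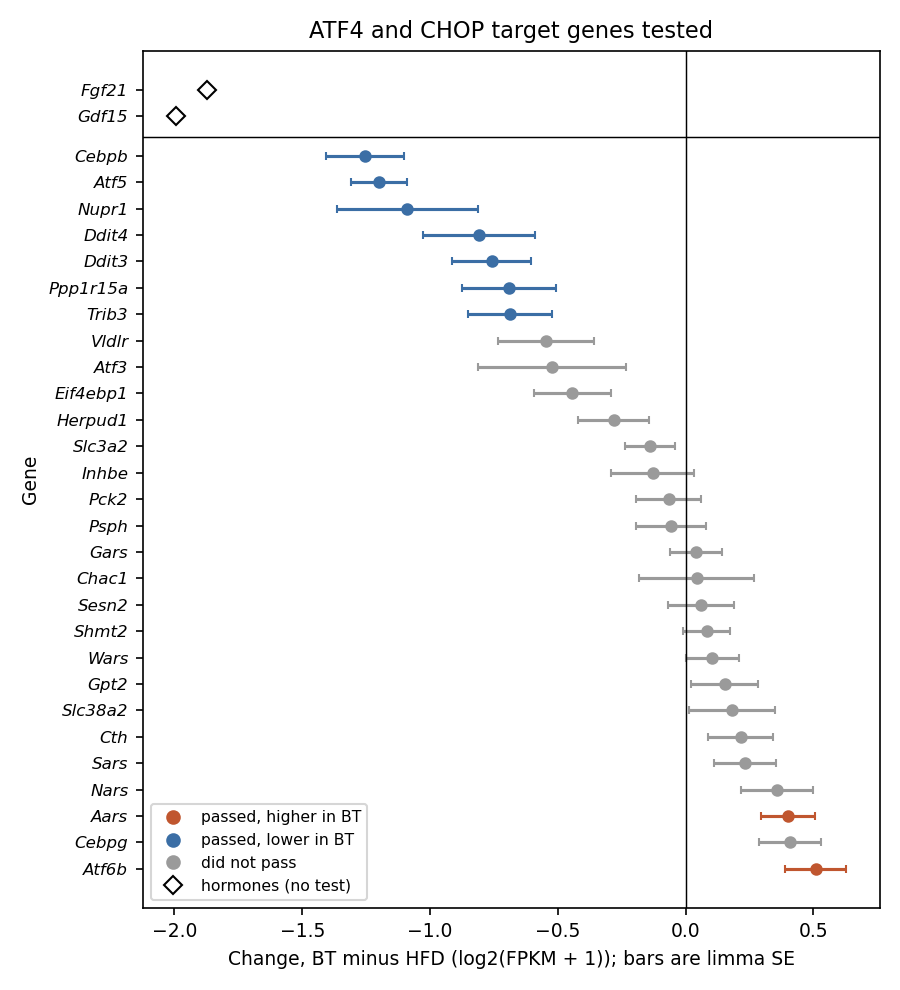
Change of each ATF4 and CHOP target tested (BT minus HFD, log2(FPKM + 1)), with limma's SE as bars; hormones are shown above the line without a test. The 7 targets that fell lie between -1.25 and -0.69. Gdf15 (-1.99) and Fgf21 (-1.87) were chosen for a large difference, so their greater distance from 0 is largely by construction.

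Apart from Ddit3, which fell as above, the sensors and core factors upstream of these targets did not pass. None of 17 genes for the eIF2alpha kinases, eIF2, eIF2B and their partners passed limma's test, and 3 were higher and 1 lower at an unadjusted p under 0.05. Atf4 mRNA stood at 49.3, 49.3 and 46.9 FPKM in BT livers and at 53.9, 57.3 and 59.5 FPKM in HFD livers (-0.22 ± 0.09, adjusted p = 0.134). ATF4 is regulated mainly through translation of its mRNA, which these data do not measure. The kinase genes Eif2ak3 (PERK), Eif2ak4 (GCN2) and Eif2ak2 (PKR) differed by -0.13, 0.16 and 0.22 (adjusted p of 0.447 to 0.596). Eif2ak1 (HRI) and Dele1, which relays mitochondrial stress to it, differed by 0.26 and 0.31 (adjusted p = 0.124 and 0.0728). Eif2b2, a subunit of the exchange factor eIF2B, passed as higher with the length and GC trend removed (0.40, adjusted p = 0.0384).

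In the mitochondrial stress response 2 of 14 genes tested fell (14.3%, against 7.33%) and none passed limma's test as higher. At an unadjusted p under 0.05, 4 were higher and 3 lower. The median change was 0.18, against 0.07 over all genes tested, and only 4 of the 14 changes were negative. Those that fell were Hspe1, the mitochondrial cochaperonin (-0.69 ± 0.13, adjusted p = 0.0152), and Clpx, a mitochondrial protease subunit (-0.86 ± 0.22, adjusted p = 0.0375). Hspe1 did not pass without BT replicate 1 or 2, nor did Clpx without BT replicate 1 or 2 or HFD replicate 1 or 3. Hspd1, the chaperonin that works with HSPE1, stood at 192 ± 6.58 FPKM with BT and 149 ± 32.1 FPKM with HFD (0.38, adjusted p = 0.114). It passed as higher when HFD replicate 1 was left out (0.55, adjusted p = 0.0154). Hspa9 differed by 0.47 (adjusted p = 0.0607) and also passed as higher without HFD replicate 1 (0.62, adjusted p = 0.0155).

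Of 16 p53 targets tested 2 fell (12.5%, against 7.33%) and none passed limma's test as higher. At an unadjusted p under 0.05, 7 were lower and 1 was higher. The median change was -0.20, against 0.07 over all genes tested, and 12 of the 16 changes were negative. Cdkn1a, the cell cycle inhibitor p21, stood at 1.28, 0.745 and 1.82 FPKM in BT livers and at 5.47, 4.84 and 12.5 FPKM in HFD livers (-1.84 ± 0.31, adjusted p = 0.0134). Rps27l, a ribosomal protein paralog, fell by 0.79 (adjusted p = 0.0148). Neither passed without BT replicate 1 (adjusted p = 0.0543 and 0.0666), and Rps27l also did not without BT replicate 2. Mdm2 and Ccng1, classical p53 targets, differed by -0.02 and -0.05, and Trp53 itself by -0.09 (adjusted p of 0.684 to 0.926). Bax, Bbc3 and Fas differed by -0.54, -0.475 and -0.43, and Ei24 by 0.58 (adjusted p of 0.0702 to 0.16). Each of these passed in its own direction under an alternative setting. With the length and GC trend removed Bax and Bbc3 differed by 0.02 and 0.01.

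Among factors known to act on hepatic Fgf21, 4 of 23 tested rose (17.4%, against 6.01%) and 2 fell (8.70%, against 7.33%). Among those that rose, Xbp1, a factor of the unfolded protein response, was higher by 0.75 ± 0.12 (adjusted p = 0.0111), Mlxipl, which encodes ChREBP, by 0.42, and Med1, a Mediator subunit, by 0.56. Ddit3 fell as above, and so did Nr1d1, the clock repressor REV-ERB-alpha (-0.66, adjusted p = 0.0316). Ppara stood at 56.3 ± 7.52 FPKM with BT and 44.5 ± 7.92 FPKM with HFD (0.34, adjusted p = 0.155), and Creb3l3, a liver factor that partners with PPARalpha on Fgf21, differed by 0.11 (adjusted p = 0.419). Without BT replicate 1 the counts were 1 higher and none lower. Among 14 factors known to act on Gdf15, 3 fell (21.4%, against 7.33%), namely Cebpb, Ddit3 and Jun (-1.22, adjusted p = 0.04), and 1 rose (7.14%, against 6.01%), Xbp1. The number that fell was 1 on omitting BT replicate 1 or 2, and Jun passed only when HFD replicate 2 was the library omitted. With the length and GC trend removed none of these fell and Xbp1 rose.

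Of 32 PPARalpha targets tested 6 fell (18.8%, against 7.33%) and 1 rose (3.13%, against 6.01%). Acot4, a peroxisomal thioesterase, fell to 0.696 ± 0.196 FPKM with BT, against 3.14 ± 0.601 FPKM with HFD (-1.28 ± 0.16, adjusted p = 0.00561). Angptl4, an inhibitor of lipoprotein lipase, fell by 0.72 and Pdk4, which limits pyruvate oxidation, by 0.90. The oxidation genes Acaa1b (-0.56) and Acot2 (-0.70) and the fatty acid-binding protein gene Fabp1 (-0.71) also fell, and Acot3, a paralog of Acot4, rose by 0.73. The classical targets Cyp4a14, Cyp4a10 and Cpt1a differed by 0.02, -0.07 and 0.24 (adjusted p of 0.173 to 0.926). Acot4 kept its call whichever library was omitted, and the number that fell was 1 without BT replicate 1, 2 without BT replicate 2 or HFD replicate 2, and 3 without BT replicate 3 or HFD replicate 3.

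Of 18 ChREBP targets tested 4 fell (22.2%, against 7.33%) and 1 rose, Mlxipl itself. Gpd1, which makes glycerol phosphate, fell to 19.6 ± 1.21 FPKM with BT, against 36.8 ± 3.80 FPKM with HFD (-0.87 ± 0.11, adjusted p = 0.00629). The fructokinase gene Khk fell by 0.51, the acetyl-CoA carboxylase gene Acacb by 0.54 and the malic enzyme gene Me1 by 0.59. The textbook targets Pklr and Txnip differed by 0.31 and -0.31 (adjusted p = 0.399 and 0.062). Gpd1 kept its call whichever library was omitted. The number that fell was 1 when any single BT library was omitted, 2 when HFD replicate 2 or 3 was, and 2 on rescaling to TPM.

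**Figure D5:**
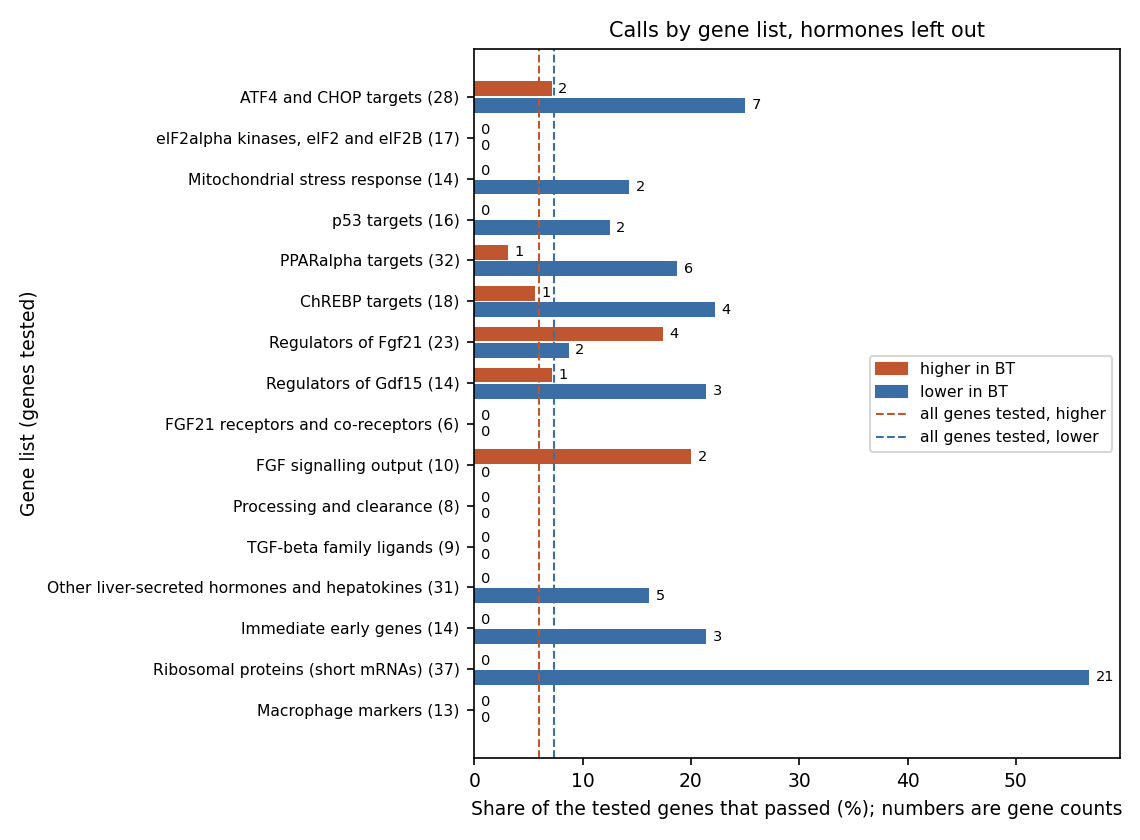
Share of the tested genes of each list that passed as higher or lower with BT (%), with gene counts beside the bars and the shares over all genes tested as dashed lines (6.01% higher, 7.33% lower). The hormones are left out of the counts. ATF4 and CHOP targets have 7 of 28 lower, while the receptors and the processing enzymes have none in either direction.

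The receptors through which the hormones act did not pass in either direction. None of 6 genes tested for FGF receptors and beta-klotho passed limma's test, and 2 were higher and none lower at an unadjusted p under 0.05. Klb, the co-receptor that FGF21 requires, stood at 4.57, 3.92 and 5.50 FPKM in BT livers and at 4.16, 3.15 and 4.05 FPKM in HFD livers (adjusted p = 0.291). Fgfr1, the receptor preferred by FGF21, was low at 2.83, 2.24 and 1.49 FPKM in BT livers and 1.26, 1.47 and 2.26 FPKM in HFD livers (adjusted p = 0.404). Fgfr4, the main FGF receptor of hepatocytes, differed by 0.36 (adjusted p = 0.136), Fgfr3 by 0.51 (adjusted p = 0.0819), Fgfr2 by 0.10 and the decoy receptor gene Fgfrl1 by -0.03. Without HFD replicate 3, Fgfr3 and Fgfr4 passed as higher (0.68 and 0.52, adjusted p = 0.0301 and 0.0365). Kl, the co-receptor for FGF23, is listed at 0 in all 6 libraries. Gfral, the receptor of GDF15, is also listed at 0 in all 6 libraries, and its signalling partner Ret at 0 in 5 and at 0.01 FPKM in HFD replicate 2. Gfra1, a receptor subunit for GDNF, was the only gene of that list above the filter, at 26.1 ± 2.36 FPKM with BT and 16.8 ± 5.23 FPKM with HFD (0.64, adjusted p = 0.0607). It passed without HFD replicate 1 (0.86, adjusted p = 0.0142).

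Of 10 tested genes of FGF receptor signalling output 2 rose (20%, against 6.01%) and none passed limma's test as lower (against 7.33%), with 1 lower at an unadjusted p under 0.05. Spry4 (0.55) and Spred1 (0.49), feedback inhibitors of receptor tyrosine kinase signalling, each had an adjusted p of 0.0416. Neither passed when any single BT library, HFD replicate 1 or HFD replicate 2 was omitted, nor after removal of the length and GC trend. Without HFD replicate 3, Spred1 passed and Spry4 did not. Of 8 tested proteases that process or clear such hormones none passed limma's test, and none was higher and 1 lower at an unadjusted p under 0.05. Furin, a proprotein convertase of the kind that matures GDF15, stood at 43.2 ± 4.74 FPKM with BT and 36.7 ± 6.13 FPKM with HFD (0.23, adjusted p = 0.281). The convertases Pcsk5, Pcsk6 and Pcsk7 differed by 0.16, 0.26 and 0.23 and the peptidase gene Dpp4 by 0.33 (adjusted p of 0.168 to 0.486). The proteases Ctsl, Mmp14 and Lgmn differed by -0.31, -0.11 and 0.03, and Ctsl passed as lower with the length and GC trend removed (-0.51, adjusted p = 0.0395). Fap, the protease that inactivates human FGF21, stayed below 1 FPKM in all libraries.

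Few other genes of the hormones' own families were expressed above the filter. Of 23 other genes of the FGF family and its binding proteins 22 stayed below 1 FPKM in all libraries. The exception, Fgf1, an autocrine growth factor, rose with BT to 36.5, 39.8 and 33.4 FPKM, against 25.8, 22.7 and 20.9 FPKM with HFD (0.64 ± 0.12, adjusted p = 0.0152), but did not pass without BT replicate 1 or without BT replicate 2. Of 9 other TGF-beta family ligands tested none passed limma's test, and none was higher and 1 lower at an unadjusted p under 0.05. Tgfb1 stood at 1.76 ± 0.0737 FPKM with BT and 2.91 ± 0.602 FPKM with HFD (-0.49, adjusted p = 0.0511), and passed without HFD replicate 1 and with median-of-ratios scaling (adjusted p = 0.0434 and 0.046). Gdf10, another member of the family, differed by -0.24 (adjusted p = 0.298).

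Other hormones and carrier proteins secreted by the liver had 5 of 31 tested genes lower (16.1%, against 7.33%) and none higher, in limma's test and also at an unadjusted p under 0.05. Enho passed as higher with the length and GC trend removed (0.84, adjusted p = 0.0154) and Hamp with a replicate block (0.96, adjusted p = 0.0196). The angiopoietin-like genes Angptl4 (-0.72), Angptl6 (-0.76, adjusted p = 0.0111) and Angptl8 (-1.22), which encode regulators of plasma lipids and metabolism, fell. Lect2, a hepatokine, fell by 0.56 and Pltp, a plasma phospholipid transfer protein gene, by 0.81. The abundant secreted proteins Ahsg and Selenop differed by 0.10 and 0.21, and Igf1 by -0.29 (adjusted p of 0.28 to 0.586). None of the 5 passed without BT replicate 1, while 2 of the list were lower on omitting BT replicate 2, BT replicate 3 or HFD replicate 2 or on removing the length and GC trend, and 3 on omitting HFD replicate 3. All 5 changes were smaller than those of Fgf21 and Gdf15, but the pair was chosen for a large difference, which largely fixed this order beforehand.

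The genes whose profiles were most like those of the hormones were found by the root mean square difference of log2(FPKM + 1) over the 6 libraries, each gene centred on its own mean. The hormones were chosen for a large difference between the diets, so genes with a difference of that size are found by construction. Among all genes tested, Fgf21 itself was the gene nearest to Gdf15 (0.358), whereas Gdf15 ranked 17th for Fgf21. The nearest genes named next were taken only among genes with an official symbol, with predicted, Gm and Rik names left out. Of these, the nearest to Fgf21 was Lars2, the mitochondrial leucyl-tRNA synthetase (0.213). It stood at 68.4, 84.5 and 99.4 FPKM in BT livers and 233, 298 and 244 FPKM in HFD livers. It was followed by the glutathione transferase gene Gstm3 (0.225), Spon2, a secreted matrix protein gene (0.237), Ifi27l2b (0.254) and the cytochrome P450 gene Cyp2b9 (0.285). After Fgf21, the nearest to Gdf15 were Rnaset2b, a ribonuclease gene (0.367), Lars2 (0.374), Spon2 (0.421) and Chchd10, a mitochondrial protein gene (0.458), which stood at 186, 231 and 190 FPKM in BT livers and 623, 897 and 618 FPKM in HFD livers. Lars2 and Spon2 were in both sets. Gstm3, Ifi27l2b, Cyp2b9 and Rnaset2b have close paralogs, and their values are uncertain for that reason.

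Bulk liver RNA cannot tell fewer cells of a type from less mRNA per cell, so markers of other sources of the hormones were read beside them. Macrophages, which can make Gdf15, had none of 13 markers past limma's test (3 higher and none lower at an unadjusted p under 0.05), and their summed level was 150 to 229 FPKM in BT livers and 155 to 218 FPKM in HFD livers. Cd5l passed as higher with the length and GC trend removed (0.55, adjusted p = 0.0307). It also did on rescaling to TPM, with a filter of 5 FPKM and with genes listed at 0 left out. Csf1r passed as higher without HFD replicate 3 (0.53, adjusted p = 0.0472). Exocrine pancreas, a source of Fgf21, had 11 of 14 markers listed at 0 in all libraries, among them Prss1, Cpa1, Pnlip and Ctrb1. The pancreatic marker above the filter, Cela1, fell by 0.67 (adjusted p = 0.0322), a call lost on rescaling to TPM, on removing the length and GC trend and on omitting any library but HFD replicate 3. All 14 markers had a summed level of 2.87 to 4.44 FPKM in BT livers and 5.31 to 6.57 FPKM in HFD livers. Stellate and fibroblast markers had 1 of 8 lower (12.5%, against 7.33%), the collagen gene Col3a1 (-1.36, adjusted p = 0.0354), a call lost on omitting BT replicate 1 or 2 or HFD replicate 2 or 3. All 8 had negative changes, with a median of -0.42, and 4 were lower at an unadjusted p under 0.05; with a replicate block 4 passed as lower. Lrat was at 0 in all libraries, and the list had a summed level of 80.8 to 106 FPKM in BT livers and 110 to 178 FPKM in HFD livers. None of 4 tested adipose markers passed limma's test, and none was higher and 1 lower at an unadjusted p under 0.05. Their list had a summed level of 383 to 420 FPKM in BT livers and 375 to 454 FPKM in HFD livers, with Plin1, Lep, Retn, Ucp1 and Tshr below 1 FPKM in all libraries.

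Features that move with RNA handling and transcript length moved with the diet as well. Immediate early genes had 3 of 14 lower with BT (21.4%, against 7.33%), namely Jund (-1.56, adjusted p = 0.00114), Jun and Klf2, with a summed level of 105 to 139 FPKM in BT livers and 144 to 359 FPKM in HFD livers. The number was 1 on omitting any single BT library or HFD replicate 3, on rescaling to TPM and on removing the length and GC trend. Ribosomal protein genes, whose mRNAs are short, had 21 of 37 lower (56.8%, against 7.33%), with a median change of -0.51. The number was 2 on omitting BT replicate 1, 8 on omitting BT replicate 2, 12 on omitting BT replicate 3, 14 on omitting HFD replicate 2 and 12 on removing the length and GC trend. They summed to 7211 to 7770 FPKM in BT livers and 9725 to 12538 FPKM in HFD livers. The part of either in the difference of the hormones was not tested. Library codes in the labels use one letter throughout the BT set and another throughout the HFD set, and an effect of the set cannot be told apart from that of the diet.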

How the data were processed

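Liver mRNA libraries of 3 BT and 3 HFD samples were grouped by their titles. The authors deposited gene-level FPKM values for 23474 Ensembl identifiers, and CASAVA 1.8.2, STAR 2.4.0 and Cufflinks 2.1.1 appear in the submitters' processing notes without their roles. The build, the annotation and whether strand was counted are not given in the sources, and overlapping and paralogous genes are therefore uncertain. GENCODE M21 (GRCm38) gave names for 22671 identifiers and none for 803. Coordinates are 1-based. RefSeq windows matched 2 of 2 hormones.

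Values were tested as log2(FPKM + 1), which understates changes of low genes, in the 10476 genes averaging 1 FPKM or more, with limma 3.58.1 (R 4.3.3, variance trend, 4 residual degrees of freedom, two-sided). P-values were adjusted by Benjamini-Hochberg over these genes, with 0.05 as the threshold; changes are BT minus HFD. An exact permutation test of 3 libraries against 3 reaches 0.1 at best and was not used. The fit was tested on simulated data. Depth was estimated from genes with 1 transcript over 1000 bases. The median of FPKM times length in kilobases between 0.03 and 0.1 was taken as the worth of 1 fragment. This fixed window bounds the result whatever the true depth, so depths, fragment numbers and counting errors are rough. Counting errors cover counting only.

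The hormones, the 27 gene lists and the tests were chosen with earlier results of these data known. Counts of lists leave out both hormones. By rule, named genes were all tested receptors and processing genes and up to 6 called members of each other list by smallest p. Where fewer passed, the 2 smallest were named. The 5 nearest profiles among genes with an official symbol (no predicted, Gm or Rik names) were also named. Further genes, among them Ppp1r15a, Ddit4, Aars, Fabp1, Atf4, Inhbe, Chac1, Ppara, the kinases and textbook targets that did not pass, were named after their values were seen. Some listed genes are counted but not reported here by name. Alternatives were another pseudocount, filters, scalings, removal of the length and GC trend (natural splines with 5 degrees of freedom), no variance trend, a block for the replicate number, and omission of each library in turn; leaving out genes listed at 0 in any library was chosen after seeing the data. Python 3.11.15, pandas 2.3.3 and matplotlib 3.10.9 were used.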

Additional observations from a re-analysis of the deposited data

How the results depend on the processing

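The 10 alternatives that can alter the difference of the hormones gave values between -2.08 and -1.52 for Fgf21 and between -2.25 and -1.63 for Gdf15. Counts of calls were less stable. Leaving out 1 library gave 173 to 1536 genes past the threshold (49 to 855 higher, 124 to 814 lower), 2 to 7 ATF4 and CHOP targets lower, 0 to 3 p53 targets, 1 to 6 PPARalpha targets, 1 to 3 ChREBP targets and 0 to 5 other hepatokines. With no filter on low values 545 genes passed (200 higher, 345 lower), with 2 ATF4 and CHOP targets, 1 PPARalpha target, 1 ChREBP target and 1 hepatokine lower. Removal of the length and GC trend gave 903 genes, 445 of them lower, with 3 ATF4 and CHOP targets, 5 ChREBP targets and 2 hepatokines lower. Rescaling to TPM left 2 ChREBP targets lower, and a filter of 5 FPKM 1 p53 target, since fewer genes were tested. Otherwise the cause was not tested. A depth of roughly 13.8 to 15.8 M fragments limits what can be said of genes near 1 FPKM.

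What same-numbered libraries of the 2 diets share beyond the number is not known. Their deviations from the group means correlated at 0.163, 0.097 and 0.147, against -0.134 to 0.009 for libraries of different numbers. Each library thus correlated best with its own number, and the reason was not tested. With a replicate block 1808 genes passed (859 higher, 949 lower) and 8 ATF4 and CHOP targets fell; the block cannot alter a difference of group means (-1.87 and -1.99 for Fgf21 and Gdf15). Of the listed genes, 24 gained and 1 lost a call.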

Other observations

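The genes next to the hormones were read as well, within 100 kb on either side. Around Fgf21, 6 of 16 annotated genes in the table were tested, of which Ppp1r15a, itself a target of CHOP, fell by 0.69 (adjusted p = 0.0431) and Bcat2, a mitochondrial aminotransferase of branched-chain amino acids, rose by 0.40 (adjusted p = 0.0414). Fut1 and Izumo1, the nearest neighbours, stayed at means of 0.521 and 0.0996 FPKM with BT and 0.640 and 0.0776 FPKM with HFD. Around Gdf15, 10 of 11 were tested, with 2 lower and 1 higher. Jund, 66493 bases away, fell by 1.56, as did the antisense gene model Gm11175 that overlaps it (-1.44), and without a strand setting their reads cannot be told apart. Ell, an elongation factor gene, rose by 0.48 (adjusted p = 0.0403). Over all genes tested 7.33% were lower and 6.01% higher, and so few neighbours allow no result about either place in the genome. Lrrc25, Pgpep1 and Ssbp4, the nearest to Gdf15, differed by 0.08, -0.01 and -0.26 (adjusted p of 0.273 to 0.942).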
